A study of Mus musculus with 39 samples.

Results

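The comparison was between primordial germ cell-like cells (PGCLC) made from the pluripotent line gPSC4 and PGCLC made from an embryonic stem (ES) line, with 3 libraries of each, 6 of the 39 libraries in the series. Members were the libraries whose labels name PGCLC induction from gPSC4 (gPSC4-PGCLC) or from ESC (ESC-PGCLC), and 3 libraries of primordial germ cells (PGC) from E12.5 embryos served to place each differing gene. The question was whether germ cell induction gives the same transcriptome from a line that was itself derived from granulosa cells, the somatic cells around the oocyte, as from ES cells. All of these mice and cells are of strain C57BL6/CBA, the ES line is labelled female, and each origin is 1 cell line. Per the labels, epiblast-like cells (EpiLC) formed in 2 days in KSR, bFGF and Activin A at 2 ng/ml, and PGCLC formed in 4 more days with BMP4 at 500 ng/ml, SCF at 100 ng/ml, EGF at 50 ng/ml and 1000 IU of mLif. No allele, transgene or sort is named, and nothing in the labels says whether replicates were separate inductions, so p-values measure only the spread between these libraries, which may be technical.

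PGC are the embryonic founders of eggs and sperm. In the mouse they are set aside from the epiblast under BMP4, switch on Prdm1, Prdm14 and Tfap2c, regain pluripotency genes and later, in the gonad, switch on Ddx4 and Dazl. Culture mimics the first of these steps by passing stem cells through an EpiLC state and then exposing them to BMP4 in floating aggregates.

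The libraries labelled PGCLC carried genes of gonadal germ cells at the level of E12.5 PGC in both origins. Ddx4, an RNA helicase of late PGC, stood at 279, 226 and 222 FPKM (fragments scaled to transcript length and library size) in gPSC4-PGCLC replicates 1 to 3, at 235, 223 and 231 FPKM in ESC-PGCLC, at 247, 237 and 267 FPKM in PGC and at 9.31 to 18.7 FPKM in the 6 EpiLC libraries. Genes of other cells were present too: the embryonic globin Hbb-y stood at 528 to 642 FPKM in the 6 PGCLC libraries and at 509 to 538 FPKM in PGC, against 0.23 to 1.86 FPKM in EpiLC. Gata4, a transcription factor of gonadal somatic cells, stood at 33.0 to 44.6 FPKM in PGCLC, at 28.8 to 39.6 FPKM in PGC and at 0 to 2.60 FPKM in EpiLC. Summed over 4 genes, the Y-linked level was 5.99 to 11.3 FPKM in ESC-PGCLC, 10.1 to 12.2 FPKM in gPSC4-PGCLC, 7.93 to 10.6 FPKM in PGC, 2.90 to 5.59 FPKM in the stem cells and 0 to 1.35 FPKM in EpiLC, although the ES line is labelled female. Globin genes were looked at after their values were seen. The Y-linked values go against the sex labelled for the ES line. They go equally against the granulosa cell origin of gPSC4, since those cells surround the oocyte and so are female. The source of these signals, and whether each library holds what its label names, was not tested, and all comparisons take the libraries as labelled. By the rule given next, of 7 globin genes, 19 genes of the fetal gonad soma and 3 Y-linked genes tested 0 were called between gPSC4-PGCLC and ESC-PGCLC. Over all genes tested 0.313% were called, so a count of 0 says little. Groups did not overlap for 3 of the 7 globin genes, all lower in gPSC4-PGCLC, and for 4 of the 19 gonad soma genes, 1 higher and 3 lower, where 6.29% of all genes tested did not overlap and were higher and 5.73% were lower. Correlations across genes among the 9 PGCLC and PGC libraries, on log2(FPKM + 1), were 0.967 to 0.980 within a group, 0.968 to 0.977 between PGCLC and PGC and 0.962 to 0.975 between PGCLC of the 2 origins. Total reads recovered from the FPKM values were 7058230 to 16785999 in the PGCLC libraries.

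**Figure D1:**
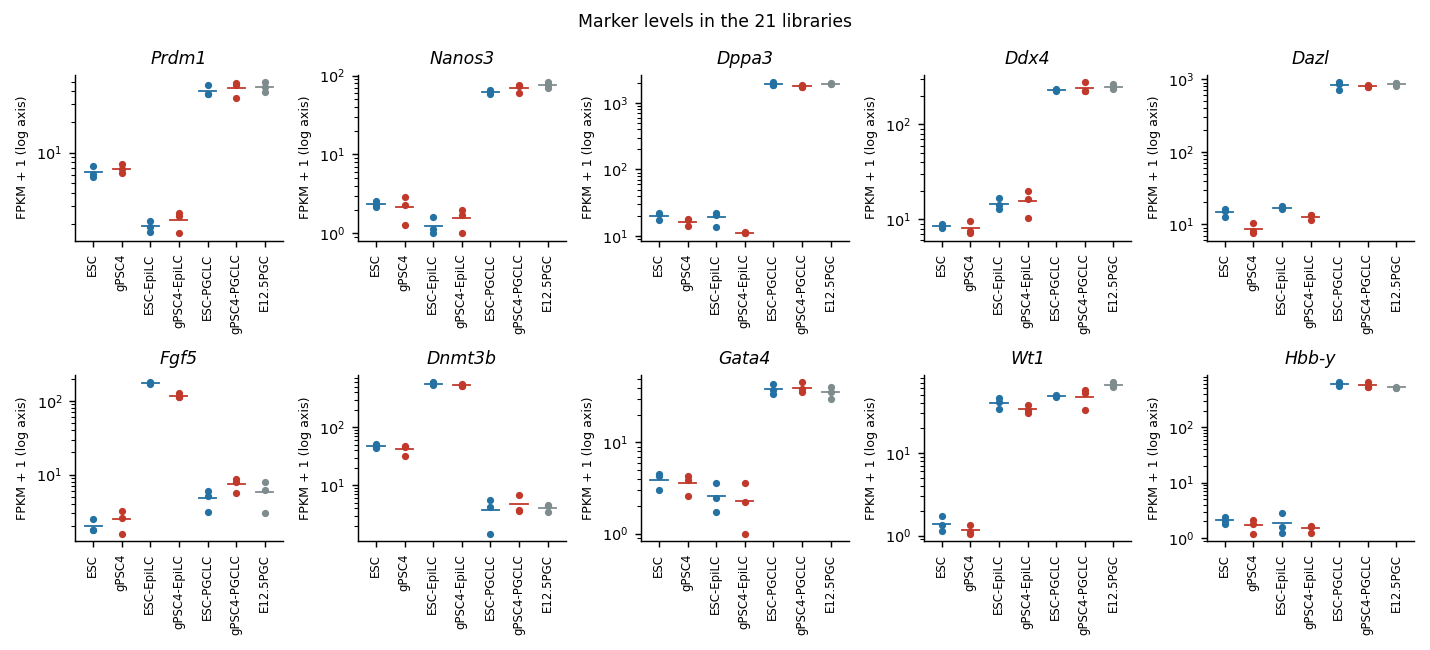
FPKM + 1 (log axis) of 10 marker genes in the 21 libraries, 3 points for each of 7 groups with a line at their mean (blue, ESC origin; red, gPSC4 origin; grey, E12.5 PGC). Ddx4, Dazl, Gata4 and Hbb-y sit at PGC level in PGCLC of both origins, and Hbb-y is at 0.23 to 1.86 FPKM in EpiLC.

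Few genes separated the origins. A gene was called when limma's moderated test on log2(FPKM + 1), fitted over all 21 libraries of the 7 groups, gave a Benjamini-Hochberg adjusted p under 0.05 and a difference of at least 1 log2. Of 14059 genes tested 44 were called (0.313%), 13 higher in gPSC4-PGCLC (0.0925%) and 31 lower (0.22%). The split between directions turned with 1 library: 17 were higher and 12 lower without ESC-PGCLC replicate 3. With no minimum difference it was 38 and 46, and voom on recovered reads gave 3 and 19. Groups did not overlap for 43 of the 44, which their choice by this same difference nearly fixes; 12% of all genes tested did not overlap. Of the 44, 7 (Myzap, Iigp1, Foxa2, Ifi47, Pld5, Epx and Colec11) reached the 1 FPKM in 3 libraries needed to be tested only through the PGCLC group in which they were high, so that they had to differ. At any size of difference 84 genes (0.597%) had an adjusted p under 0.05, and 1973 (14%) had an unadjusted p under 0.05. The spread behind these calls is shared over all 21 libraries, quieter groups included. A fit to fewer libraries changes both that spread and the number of libraries that estimate it, and these were not told apart. With the 6 PGCLC libraries alone in the fit limma called 0 genes, with a lowest adjusted p of 0.588 and 1037 genes (7.38%) at an unadjusted p under 0.05, all 44 among them. The count was 157 without gPSC4-PGCLC replicate 3, 117 without ESC-PGCLC replicate 1 and 29 without ESC-PGCLC replicate 3. An exact permutation test of a single gene over 3 against 3 libraries cannot go below a p of 0.1. In bulk RNA, fewer cells of a type and less RNA per cell cannot be told apart.

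Chst11, which adds sulfate to chondroitin chains, was higher in gPSC4-PGCLC. Its level was 7.11, 5.06 and 6.52 FPKM in gPSC4-PGCLC, 1.29, 0.94 and 1.79 FPKM in ESC-PGCLC, and 0, 0.11 and 0.87 FPKM in PGC. Every gPSC4-PGCLC library thus stood above every ESC-PGCLC library, and each of the 6 stood above all PGC libraries. The difference between origins was 1.63 log2 (SE 0.24, limma adjusted p 0.00456), and it remained called without any 1 of the 6 PGCLC libraries. The call was lost with a pseudocount of 0.1 (limma adjusted p 0.0795), by voom on recovered reads (0.0675) and with the 6 libraries alone (0.588). The gene spans chr10:82985498-83195900 on the plus strand (GENCODE M21, GRCm38).

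Vhl, the substrate receptor of the ubiquitin ligase that marks hypoxia-inducible factor for destruction, was higher in gPSC4-PGCLC, with the smallest standard error of the 44. It stood at 81.3, 64.3 and 81.4 FPKM in gPSC4-PGCLC, at 37.4, 29.5 and 36.1 FPKM in ESC-PGCLC and at 51.4, 74.0 and 67.7 FPKM in PGC. The origins did not overlap, and gPSC4-PGCLC overlapped PGC whereas ESC-PGCLC lay below all 3 PGC libraries. The difference of 1.12 log2 (SE 0.14, limma adjusted p 0.00234) was also called by voom on the recovered reads (1.11 log2, adjusted p 0.0208) and without each of the 6 libraries in turn. With the 6 libraries alone its unadjusted p was 0.000275 and its adjusted p 0.588. Against PGC, ESC-PGCLC was lower by an amount under the size limit (−0.88 log2, limma adjusted p 0.00401).

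Stretches upstream of 3 genes are shown: Chst11, which was furthest from PGC in gPSC4-PGCLC, Vhl, which lost its call under the fewest other settings of the named genes, and Cited2, which was lower in gPSC4-PGCLC. Each runs from 250 to 51 bases before the RefSeq start on the plus strand (GRCm38.p6), and capitals mark the GC box GGGCGG, the core ACGTG and the TATA box TATAAA on either strand.
Chst11 at chr10:82985247-82985446: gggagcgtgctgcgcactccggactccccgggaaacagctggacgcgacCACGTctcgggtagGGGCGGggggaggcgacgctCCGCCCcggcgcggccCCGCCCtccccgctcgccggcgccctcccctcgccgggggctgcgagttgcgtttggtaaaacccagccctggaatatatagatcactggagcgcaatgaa
Vhl at chr6:113623744-113623943: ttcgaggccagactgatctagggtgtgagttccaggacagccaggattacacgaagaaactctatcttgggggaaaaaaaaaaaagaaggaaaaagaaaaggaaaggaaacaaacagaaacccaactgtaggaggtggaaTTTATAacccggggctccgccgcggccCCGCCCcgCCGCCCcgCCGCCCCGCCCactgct
Cited2 at chr10:17722978-17723177: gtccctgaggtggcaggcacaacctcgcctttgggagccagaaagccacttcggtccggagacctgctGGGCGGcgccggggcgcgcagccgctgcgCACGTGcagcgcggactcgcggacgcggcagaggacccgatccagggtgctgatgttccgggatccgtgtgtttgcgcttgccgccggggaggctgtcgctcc
The GC box occurred 3 times upstream of Chst11, 4 times upstream of Vhl and 1 time upstream of Cited2. It was present in 24.6% of 32807 windows of the same length and place. The core ACGTG occurred 1 time upstream of Chst11 and was read on both strands over the same CACGTG upstream of Cited2, and 12.9% of windows held it. TATAAA was found upstream of Vhl, on the minus strand, and in 9.14% of windows. The GC content was 71.0% upstream of Chst11 and of Cited2, and 54.5% upstream of Vhl. The same window upstream of Cd34, read too and not shown, had a GC content of 43.5%. It held 0 matches to the GC box, 0 to ACGTG and 0 to TATAAA, so the motifs are not shared by all genes read.

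Cd34, a surface sialomucin of blood progenitors and endothelium, was higher in gPSC4-PGCLC. Its level was 17.1, 24.9 and 14.4 FPKM there, 5.79, 10.4 and 7.65 FPKM in ESC-PGCLC and 13.1, 13.3 and 10.3 FPKM in PGC. The origins did not overlap and PGC lay between their means. The difference was 1.14 log2 (SE 0.23, limma adjusted p 0.0313), and it remained called in 2 of the 6 fits that left out 1 PGCLC library. Cd34 was the single member called of 25 blood and endothelial genes tested, where 0.313% of all genes tested were called. The median difference of the 25 was 0.12 log2. Groups did not overlap for 4 of the 25 (Cd34, Tal1, Gata1 and Pecam1), all higher in gPSC4-PGCLC, where 6.29% of all genes were. The endothelial gene Cdh5 stood at 0.75 to 1.42 FPKM and the white blood cell gene Ptprc at 0 to 0.53 FPKM in the 6 PGCLC libraries. The 7 globin genes, by contrast, summed to 1399 to 1530 FPKM in gPSC4-PGCLC and 1541 to 2039 FPKM in ESC-PGCLC. Pecam1, which germ cells also express, stood at 152 to 176 FPKM in gPSC4-PGCLC and 135 to 150 FPKM in ESC-PGCLC. The blood cell content of the libraries was not tested.

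Zfp931, a zinc finger gene, had 11.3, 8.92 and 14.4 FPKM in gPSC4-PGCLC against 2.57, 3.17 and 6.75 FPKM in ESC-PGCLC (1.34 log2, SE 0.23, limma adjusted p 0.0162). Further named genes that were higher in gPSC4-PGCLC were Msmp (1.36 log2), which encodes a secreted microseminoprotein, Fkbp1b (1.02 log2), a partner of ryanodine receptors, and Eno3 (1.01 log2), the muscle enolase. Of the 13 genes that were higher, 5 had an ESC-PGCLC mean under 1 FPKM, among them Colec11 and Lrtm2, named here after their values were seen.

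**Figure D2:**
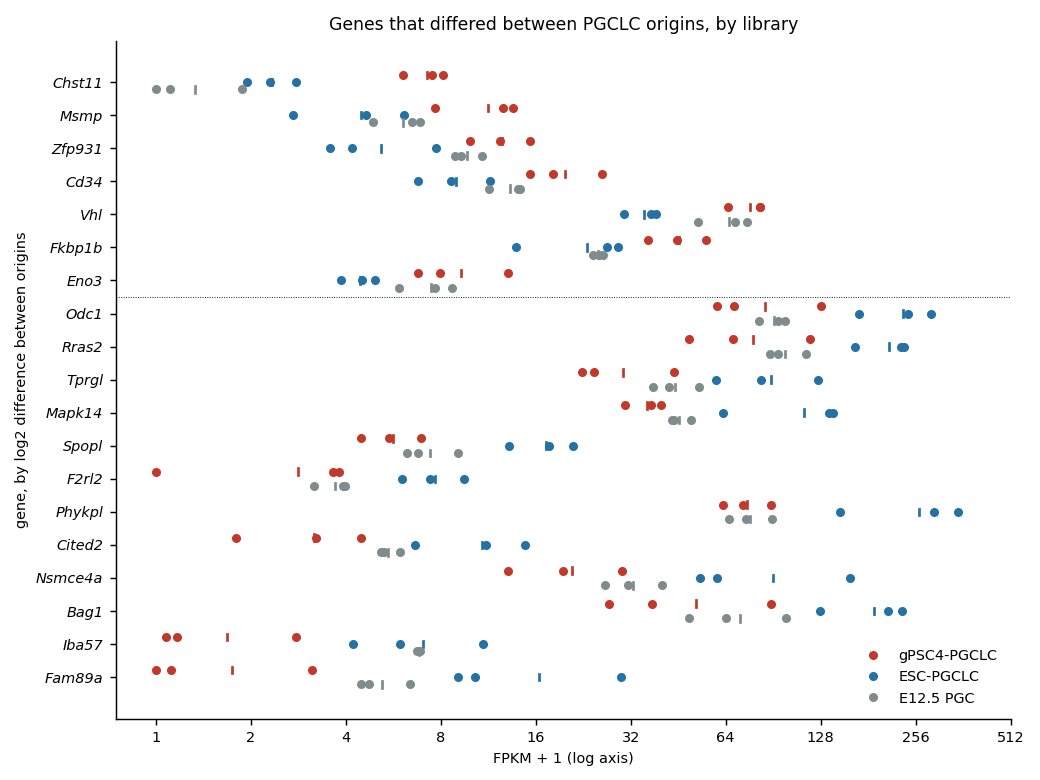
FPKM + 1 (log axis) of 19 named genes with large called differences, by library: gPSC4-PGCLC (red), ESC-PGCLC (blue) and E12.5 PGC (grey), with a tick at each mean. The dotted line parts the 7 genes that were higher in gPSC4-PGCLC from the 12 that were lower, and no red point overlaps the blue points of its gene.

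Cited2, a transcriptional coregulator that competes with hypoxia-inducible factor for CBP and p300, was lower in gPSC4-PGCLC. It stood at 2.21, 0.79 and 3.48 FPKM in gPSC4-PGCLC, at 10.1, 5.60 and 13.8 FPKM in ESC-PGCLC and at 4.16, 4.28 and 4.92 FPKM in PGC. All 3 PGC values fell in the gap between the origins. The difference was −1.80 log2 (SE 0.34, limma adjusted p 0.0268), and it remained called in 4 of 6 fits that left out a PGCLC library. Of 16 genes of oxygen sensing, a list made after the values were seen, Vhl and Cited2 were the 2 called. Over all genes tested 0.313% were called. Groups did not overlap for 3 of the 16 that were higher in gPSC4-PGCLC and 3 that were lower, Vhl and Cited2 included. Over all genes tested these shares were 6.29% and 5.73%. Hif1a itself had 113, 120 and 129 FPKM in gPSC4-PGCLC and 111, 110 and 110 FPKM in ESC-PGCLC (0.13 log2, limma adjusted p 0.49). The hypoxia-inducible genes Vegfa, Bnip3 and Egln3 had differences of −0.33, 0.00 and −0.19 log2 that did not pass the test. Slc2a3 and Ldha, which passed below the size limit, are given with the glycolysis genes. The activity of hypoxia-inducible factor was not tested.

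A pair of interferon-inducible GTPases was read in ESC-PGCLC alone among the PGCLC libraries. Iigp1, chosen after its values were seen, stood at 1.79, 2.97 and 1.09 FPKM in ESC-PGCLC. It was listed at 0 in all 3 gPSC4-PGCLC libraries and at 0, 0 and 0.06 FPKM in PGC (−1.51 log2, limma adjusted p 0.00234). Ifi47, chosen in the same way, stood at 1.02, 1.12 and 1.57 FPKM in ESC-PGCLC and was listed at 0 in gPSC4-PGCLC (−1.15 log2, limma adjusted p 0.0171). Both were tested only because ESC-PGCLC reached 1 FPKM, so their calls add little to these values. Myd88, the adaptor of Toll-like receptors, was called too, at 2.82, 2.70 and 4.06 FPKM in gPSC4-PGCLC against 10.3, 8.47 and 5.48 FPKM in ESC-PGCLC (limma adjusted p 0.0398). These 3 were the called members of 15 interferon and innate immunity genes tested, a list made after the values were seen. Over all genes tested 0.313% were called. Groups did not overlap for 1 of the 15 that was higher in gPSC4-PGCLC and 4 that were lower, against 6.29% and 5.73% of all genes. Irf1 had a difference of −0.03 log2 and Isg15 of −0.71 log2, and neither was called.

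Of the 31 lower genes, 12 had means of at least 10 FPKM in both origins and 10 had a gPSC4-PGCLC mean under 1 FPKM. Odc1, the rate-limiting enzyme of polyamine synthesis, stood at 67.1, 59.0 and 127 FPKM in gPSC4-PGCLC, 168, 242 and 286 FPKM in ESC-PGCLC and 97.6, 92.9 and 80.7 FPKM in PGC. Replicates 1 and 2 of gPSC4-PGCLC lay below PGC, replicate 3 lay above it, and all ESC-PGCLC values were higher still. Its difference was −1.50 log2 (SE 0.31, limma adjusted p 0.0348), and it was the 1 called of 12 polyamine genes tested (listed after the values were seen). Mapk14, a stress-activated MAP kinase, stood at 38.9, 29.6 and 36.2 FPKM in gPSC4-PGCLC and at 61.8, 140 and 135 FPKM in ESC-PGCLC. ESC-PGCLC replicate 1 was the lowest of its group there, close to the 42.1 to 48.8 FPKM of PGC. Its difference was −1.57 log2 (limma adjusted p 0.041), the 1 called of 10 genes tested in its kinase pathway, a list made after the values were seen. Beside both this list and the polyamine list, 0.313% of all genes tested were called.

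Bag1, a co-chaperone of Hsp70 proteins, stood at 36.5, 26.2 and 88.4 FPKM in gPSC4-PGCLC, 127, 231 and 208 FPKM in ESC-PGCLC and 98.6, 48.1 and 63.0 FPKM in PGC (−2.03 log2, SE 0.43, limma adjusted p 0.0389). Rras2, a Ras-family GTPase, stood at 66.4, 48.0 and 117 FPKM in gPSC4-PGCLC and at 164, 234 and 230 FPKM in ESC-PGCLC (−1.51 log2, limma adjusted p 0.0389). In both genes gPSC4-PGCLC replicate 3 and ESC-PGCLC replicate 1 came closest to each other. That was common among the 31 lower genes: gPSC4-PGCLC replicate 3 was the highest gPSC4-PGCLC library in 16 of them, and ESC-PGCLC replicate 1 the lowest ESC-PGCLC library in 20. Why these libraries approach the other origin was not tested. Phykpl, a lysine-degrading phospholyase, had −1.74 log2, Nsmce4a, a subunit of the SMC complex for DNA repair, −2.02 log2, Tprgl −1.56 log2 and Spopl, an adaptor of a cullin ubiquitin ligase, −1.61 log2. F2rl2, a protease-activated receptor, had −1.65 log2 and was listed at 0 in 1 of the 3 gPSC4-PGCLC libraries.

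Fam89a had the largest difference of the 44, −3.21 log2 (SE 0.63, limma adjusted p 0.0303). Its level was 0.11, 2.12 and 0 FPKM in gPSC4-PGCLC, 9.29, 8.08 and 28.7 FPKM in ESC-PGCLC and 3.47, 3.73 and 5.39 FPKM in PGC, so that PGC lay in the gap between the origins as for Cited2. Iba57, which acts in mitochondrial iron-sulfur cluster assembly, stood at 0.17, 1.78 and 0.07 FPKM in gPSC4-PGCLC, 3.21, 9.89 and 4.94 FPKM in ESC-PGCLC and 5.89, 5.80 and 5.71 FPKM in PGC (−2.10 log2, limma adjusted p 0.031). Foxa2, a pioneer factor of endoderm, was listed at 0 in all 3 gPSC4-PGCLC libraries and stood at 1.75, 1.01 and 1.22 FPKM in ESC-PGCLC (−1.21 log2, limma adjusted p 0.0269). It was the 1 called of 14 endoderm genes tested, where 0.313% of all genes tested were called. It entered the test only through the ESC-PGCLC libraries.

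The 44 genes were set against the libraries labelled PGC to place each origin. By the same call rule gPSC4-PGCLC differed from PGC in 81 genes (0.576%), 55 higher and 26 lower, and ESC-PGCLC in 60 (0.427%), 48 higher and 12 lower; both counts use the same 3 PGC libraries. The first was 148 without gPSC4-PGCLC replicate 3, and the second 140 without ESC-PGCLC replicate 1, 29 without its replicate 3, and 26 and 39 without PGC replicates 2 and 3. Among the 44, gPSC4-PGCLC alone was called against PGC for 5 genes, ESC-PGCLC alone for 8, both for 0, and neither for 31. This balance turned with single libraries: the counts were 37 and 21 without gPSC4-PGCLC replicate 3 and 12 and 49 without ESC-PGCLC replicate 1, and 0 genes could be placed with PGCLC and PGC alone in the fit. The 5 were Chst11, above PGC, and Iba57, Btg3, Top1mt and Myd88, below it. Chst11 had the largest of these differences, 2.49 log2 above PGC (SE 0.24, limma adjusted p 3.68e-06) in gPSC4-PGCLC and 0.86 log2 (adjusted p 0.0978) in ESC-PGCLC. Btg3, an antiproliferative factor, differed from PGC by −1.26 log2 in gPSC4-PGCLC (limma adjusted p 0.0391), with 7.58, 3.90 and 8.60 FPKM against 15.9 to 17.7 FPKM in PGC. Top1mt, the mitochondrial topoisomerase, differed by −1.11 log2 (limma adjusted p 0.0329).

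Among the 8 genes in which ESC-PGCLC alone was called against PGC were Phykpl, Odc1, Galnt10, Iigp1 and 4933428G20Rik, above PGC, and A730017C20Rik, below it. Phykpl stood at 147, 292 and 348 FPKM in ESC-PGCLC, 71.5, 61.8 and 87.9 FPKM in gPSC4-PGCLC and 88.9, 64.4 and 73.3 FPKM in PGC. Only ESC-PGCLC lay outside the PGC range on the high side (1.70 log2, limma adjusted p 0.0187; −0.04 log2 for gPSC4-PGCLC). Galnt10, which starts mucin-type glycans, was 1.39 log2 above PGC in ESC-PGCLC (limma adjusted p 0.0252) and 0.11 log2 in gPSC4-PGCLC. By group means alone, ESC-PGCLC was further from PGC in 28 of the 44 and gPSC4-PGCLC in 16, where ESC-PGCLC was further in 50.1% of all genes tested; since the genes were chosen for their difference, this is a description. Among the lower genes ESC-PGCLC was further in 22 of 31, and among the higher genes in 6 of 13. All of these counts include the 7 genes that entered the test only through their higher PGCLC group, Iigp1 of the 8 among them. For those genes fewer than 3 libraries outside that group reached 1 FPKM, which leaves PGC low by selection. The PGC mean lay between both origins for 38 of the 44, against 33.2% of all genes, above both for 4 and below both for 2. A gene chosen for a gap between the origins leaves more room for another group in that gap.

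**Figure D3:**
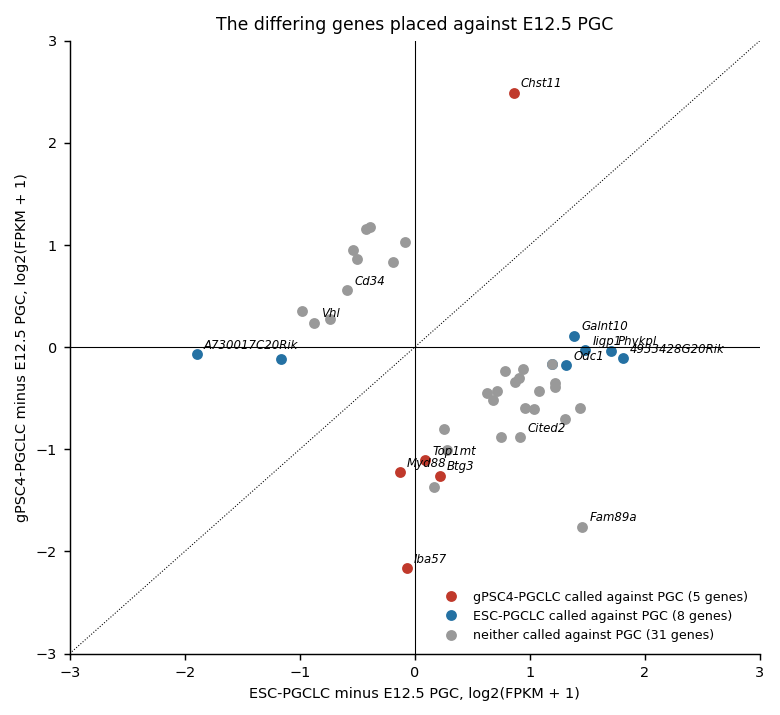
Each of the 44 genes by its difference from E12.5 PGC, on log2(FPKM + 1), in ESC-PGCLC (x axis) and gPSC4-PGCLC (y axis), coloured by which origin was called against PGC. Points near the x axis (Phykpl, Odc1, Iigp1) differ from PGC in ESC-PGCLC, points near the y axis (Iba57, Btg3, Myd88) differ in gPSC4-PGCLC, and Chst11 stands alone at 2.49 log2.

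Few genes were called between the origins at earlier stages. As stem cells the origins differed in 1 gene by the same rule (0.00711%) and as EpiLC in 10 (0.0711%). Of the 44, 0 were among these, which says little where so few genes were called. The EpiLC count was 5 and 6 without ESC-EpiLC replicates 1 and 2 and 4 without gPSC4-EpiLC replicate 2, and the stem cell count was 0 or 3 without any 1 library. As EpiLC 37 of the 44 differed by less than 0.5 log2 between origins, as did 91.9% of all genes tested. Their median absolute difference there was 0.15 log2, beside 0.14 log2 over all genes; the 1.42 log2 in PGCLC follows from their choice. Of the 31 lower genes 22 had a stem cell difference on the other side, above 0, as had 46% of all genes tested. Odc1, for example, had means of 122 FPKM in gPSC4 and 67.6 FPKM in ESC, 445 and 427 FPKM in the EpiLC of each, and 84.4 and 232 FPKM in the PGCLC.

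The change from EpiLC to PGCLC differed between the origins in 12 genes (0.0854%), by an interaction contrast in the same fit, and 8 of the 44 were among them. That contrast contains the difference between PGCLC origins by which the 44 were chosen. The overlap, and the shared sign of both differences in 44 of 44, are thus largely fixed by that choice. The count of 12 became 43 without gPSC4-PGCLC replicate 3, and 20 and 21 without ESC-PGCLC replicates 1 and 2. Chst11 had 1.95, 1.81 and 1.51 FPKM in gPSC4-EpiLC and 2.97, 4.03 and 3.61 FPKM in ESC-EpiLC, so that the order of the origins was the opposite of that in PGCLC. Its step differed by 2.35 log2 (SE 0.34, limma adjusted p 0.00803). Vhl had 47.1 to 63.3 FPKM in gPSC4-EpiLC and 52.8 to 64.8 FPKM in ESC-EpiLC, which overlapped, and 71.9 to 82.5 FPKM in the stem cells of both lines. Its step differed by 1.22 log2 (SE 0.20, limma adjusted p 0.0114). Cited2 had 8.37, 7.61 and 14.9 FPKM in gPSC4-EpiLC against 7.51, 5.26 and 3.87 FPKM in ESC-EpiLC, higher in every library of the origin that was lower in PGCLC. Its step differed by −2.57 log2 (SE 0.48, limma adjusted p 0.041), a call held in 6 of 22 settings, where Chst11 and Vhl were called in 20 of 22 each. The other 5 were Btg3 and Lrtm2, and Myzap, Iigp1 and Colec11, which entered the test only through the PGCLC group in which they were high. Cd34 was not among the 8, with a step difference of 0.99 log2 (limma adjusted p 0.252). It stood at 15.0 to 22.2 FPKM in gPSC4-EpiLC and 13.4 to 20.8 FPKM in ESC-EpiLC.

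**Figure D4:**
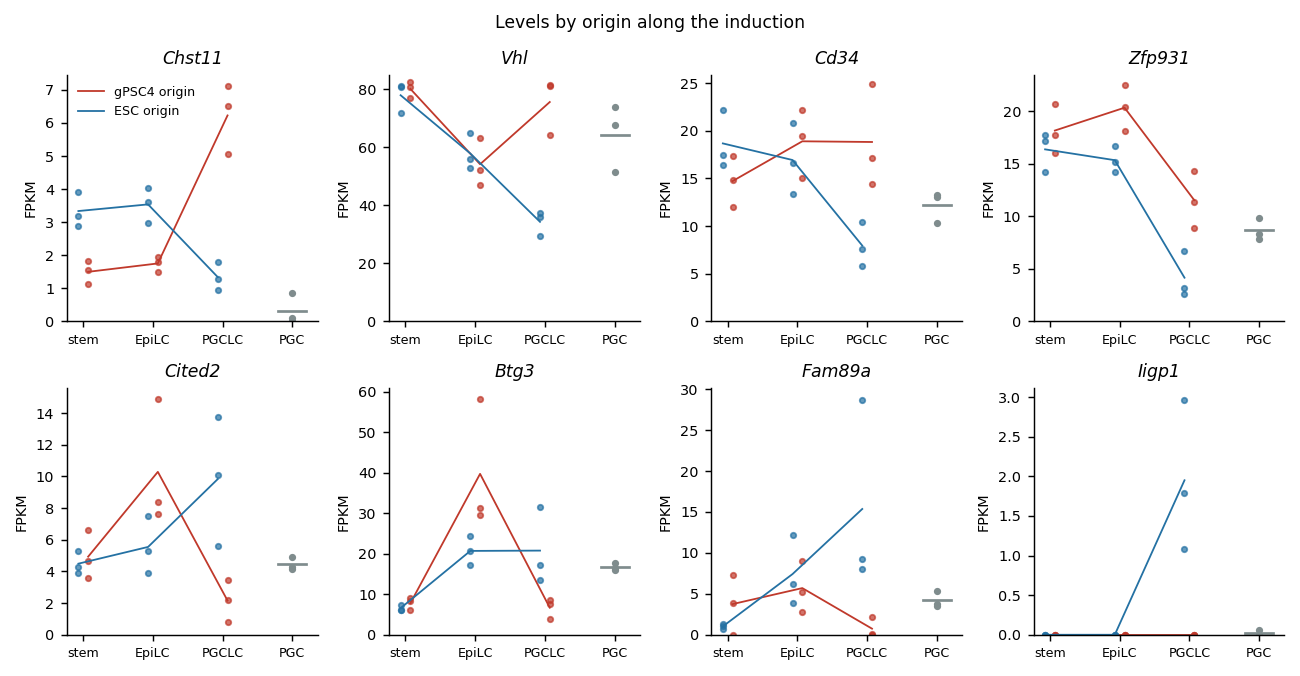
FPKM of 8 genes in stem cells, EpiLC and PGCLC of gPSC4 origin (red) and ESC origin (blue), with points for single libraries and lines through means of 3, and in E12.5 PGC (grey). Chst11 and Cited2 change their order between EpiLC and PGCLC, and the origins of Vhl overlap in EpiLC and not in PGCLC. The step did not pass the test for Cd34 (0.99 log2, limma adjusted p 0.252) or Fam89a (−2.90 log2, adjusted p 0.214).

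Germ cell genes were not among those called between the origins. Of 12 fixed germ cell and pluripotency genes 0 were called, with differences from −0.29 to 0.18 log2 and a lowest limma adjusted p of 0.23. Since 0.313% of all genes tested were called, a count of 0 in so short a list says little by itself. Prdm1, which represses the somatic programme, stood at 45.1, 47.7 and 33.7 FPKM in gPSC4-PGCLC and at 45.2, 37.1 and 36.6 FPKM in ESC-PGCLC. Dppa3, a chromatin protein of early germ cells, stood at 1857, 1724 and 1700 FPKM and at 1838, 2039 and 1840 FPKM in the same order of origins. Dazl stood at 771, 790 and 820 FPKM and at 912, 857 and 718 FPKM. The origins overlapped for each of these 3. Of 23 germ cell specification genes and 32 late germ cell and piRNA pathway genes tested, 0 were called, with median differences of −0.03 and 0.00 log2 beside 0.00 log2 over all genes. Groups did not overlap for 1 higher and 2 lower of the 23, and for 2 lower of the 32. Over all genes 6.29% did not overlap and were higher and 5.73% were lower. The lowest difference among the 23 was −1.77 log2.

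Among 30 lists with 584 genes, 26 had no called member, where 0.313% of all genes tested were called. The other 4 lists held 1 each: Cd34, Foxa2, Chst11 (of 30 chondroitin and heparan sulfate enzymes) and Cited2 (of 9 CITED family genes and partners). Below the size limit, 4 more list genes had an adjusted p under 0.05. Tdgf1, the co-receptor of Nodal, stood at 173, 149 and 128 FPKM in gPSC4-PGCLC, 68.7, 80.6 and 126 FPKM in ESC-PGCLC and 23.1 to 23.6 FPKM in PGC (0.74 log2, limma adjusted p 0.0268). ESC-PGCLC replicate 3 nearly reached the gPSC4-PGCLC libraries there. Ezh2, the methyltransferase of Polycomb repression, stood at 39.6, 33.9 and 37.4 FPKM in gPSC4-PGCLC and at 59.2, 51.2 and 59.1 FPKM in ESC-PGCLC (−0.60 log2, limma adjusted p 0.0303).

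Of 21 glycolysis genes tested, 8 had gPSC4-PGCLC libraries that all lay above those of ESC-PGCLC, where 6.29% of all genes did, and 1 lay the other way. Slc2a3, a glucose transporter, stood at 315, 329 and 290 FPKM in gPSC4-PGCLC, 237, 206 and 256 FPKM in ESC-PGCLC and 142 to 168 FPKM in PGC (0.42 log2, limma adjusted p 0.043). Ldha, which makes lactate, stood at 369, 348 and 359 FPKM in gPSC4-PGCLC, 327, 304 and 285 FPKM in ESC-PGCLC and 218 to 226 FPKM in PGC (0.23 log2, limma adjusted p 0.0408). Among PGCLC and PGC, both genes were thus highest in gPSC4-PGCLC and lowest in PGC. The median of the list was 0.12 log2, and its summed level was 8523 to 8539 FPKM in gPSC4-PGCLC, 7724 to 8138 FPKM in ESC-PGCLC and 7150 to 7680 FPKM in PGC. The same sum was higher at earlier stages, 17715 to 20047 FPKM in EpiLC and 14534 to 15849 FPKM in the stem cells. Of 24 cytosolic ribosomal protein genes 7 did not overlap and were lower in gPSC4-PGCLC, where 5.73% of all genes were, with a median of −0.10 log2 and 0 called.

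How firmly the 44 can be read depends on which and how many libraries set the error. Replicates of the PGCLC groups varied more than those of the groups whose spread they share. The median SD over genes was 0.25 log2 in gPSC4-PGCLC and 0.23 in ESC-PGCLC. It was 0.21 in PGC, close to ESC-PGCLC, 0.18 in each EpiLC group, 0.16 in gPSC4 and 0.13 in ESC. Leaving the ESC libraries out of the fit gave 7 called genes, Vhl, Chst11, Colec11, Zfp931, Myzap, Iigp1 and Ifi47. All 7 were also among the 8 that kept their call without any 1 PGCLC library; the other was Pld5. Of these 8, 5 (Myzap, Iigp1, Ifi47, Pld5 and Colec11) entered the test only through the group in which they were high, and Vhl, Chst11 and Zfp931 did not. Voom on recovered reads called 22 genes, of which 11 were among the 44. Those 11 included Vhl, and Iigp1, Ifi47, Myzap and Foxa2 of the genes that entered the test in that way, and did not include Chst11, Cd34 or Cited2. Of the 44, 23 kept their call in 1 or 2 of the 6 fits without a PGCLC library. Among these 23 were Odc1, Mapk14, Bag1, Rras2, Phykpl, Tprgl, Myd88, Cd34 and Eno3 (2 of 6 each) and Spopl (1 of 6).

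**Figure D5:**
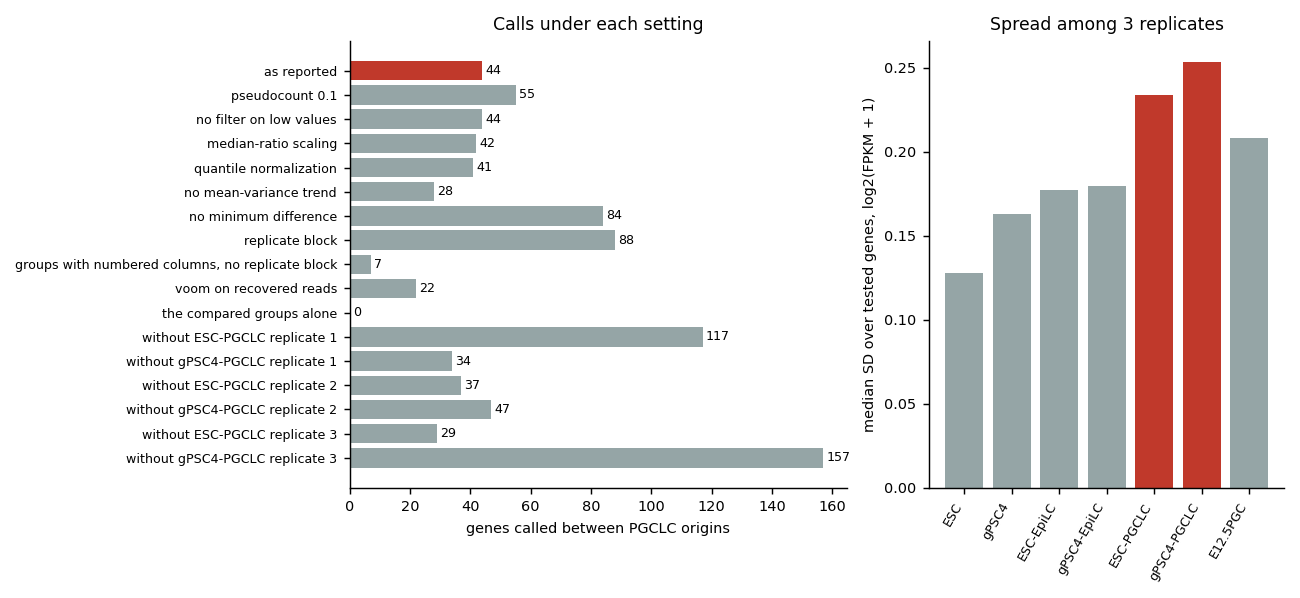
Left, number of genes called between PGCLC origins under each setting (red, as reported). Right, median SD among 3 replicates over all tested genes, on log2(FPKM + 1), by group, with PGCLC groups in red. The count runs from 0 with the compared groups alone to 157 without gPSC4-PGCLC replicate 3, and both PGCLC groups have the widest spread, 0.23 and 0.25.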

How the data were processed

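Total RNA was sequenced after preparation with the NEBNext Ultra kit, per the labels' protocols. The authors deposited FPKM values, per the file header of the induction table, which holds 20354 genes in 21 libraries; depth was recovered where FPKM values of 16966 of 17600 genes resolved to whole reads (within 0.001 reads; 96.4%), 6107203 to 25223768 reads per library. The submitters' processing notes name mm10 as the build, and HISAT2, Bowtie2, DESeq2, RSEM and R (3.4.2) as tools without saying what each did. The 3 ESC columns match their group and carry no replicate number. Genes needed 1 FPKM in 3 libraries (14059 genes). limma 3.58.1 in R 4.3.3 was fitted to log2(FPKM + 1) with a mean-variance trend, group as the single term and all 21 libraries, two-sided, with Benjamini-Hochberg adjustment over all genes tested; SE is limma's moderated standard error. A log2 difference on this scale understates the change of low genes. The test was checked on simulated data in which a gene had the same spread in every group. That check does not cover the wider spread of the PGCLC groups. Named genes were the 12 highest and 12 lowest called genes whose groups did not overlap with a higher mean of at least 5 FPKM, without predicted genes (8 higher genes were eligible), up to 3 called genes per list, Chst11, Cited2, Cd34 and 12 germ cell genes; others are said to be chosen after their values were seen. A few of the genes it selects are not reported here. Members, lists and settings were chosen with earlier results of these data known. Coordinates come from GENCODE M21 and upstream sequences from RefSeq (GRCm38.p6). Overlapping and antisense genes could share reads, since strand is not given in the sources used here. Other settings tried were voom on recovered reads, quantile and median-ratio scaling, a pseudocount of 0.1, dropping the filter, the trend or the minimum difference, fewer groups, leaving out single libraries, and a block for the replicate number.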

Additional observations from a re-analysis of the deposited data

Results flagged for a closer look

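In 3 named genes the change from EpiLC to PGCLC differed between the origins by the interaction contrast. The contrast contains the difference between PGCLC origins for which these genes were already called, so it is not a separate result. Vhl differed by 1.22 log2: its mean went from 54.2 to 75.6 FPKM in the gPSC4 origin and from 57.9 to 34.3 FPKM in the ESC origin. Chst11 differed by 2.35 log2, going from 1.75 to 6.23 FPKM in the gPSC4 origin and from 3.54 to 1.34 FPKM in the ESC origin. Cited2 differed by −2.57 log2, going from 10.3 to 2.16 FPKM in the gPSC4 origin and from 5.55 to 9.84 FPKM in the ESC origin. With only the EpiLC and PGCLC groups in the fit Chst11 kept its call (limma adjusted p 0.0491), and Vhl (0.14) and Cited2 (0.303) did not.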

How the results depend on the processing

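Of the 21 named genes called between PGCLC origins, 0 changed direction in 336 values under other settings, and 133 of these values were no longer called. The 0 is largely fixed in advance. Groups did not overlap for these genes, so leaving out 1 library cannot turn the sign, and several other settings keep the same difference. The count of genes called between origins, 44 as reported, was 28 with no trend, 84 with no minimum difference, 22 by voom on recovered reads, 7 without the ESC group and 0 with the compared groups alone; leaving out single libraries gave 29 to 157. For gPSC4-PGCLC against PGC (81) it was 149 with no minimum difference, 8 with both groups alone, and 69 to 148 without single libraries. For ESC-PGCLC against PGC (60) it was 38 with no filter, 37 with no trend, 119 with no minimum difference, 12 by voom, 26 without the ESC group, 0 alone (1382 genes at an unadjusted p under 0.05 by limma), and 26 to 140 without single libraries. For EpiLC (10) it was 26 with no minimum difference, 2 by voom, 2 alone, and 4 to 10 without single libraries. For gPSC4 against ESC (1) it was 3 with no filter, 4 with no minimum difference, 0 alone (by limma), and 0 to 3 without single libraries. For the step by origin (12) it was 7 without the ESC group, 1 by voom, 4 alone, and 8 to 43 without single libraries.

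Genes placed as departing in gPSC4-PGCLC (5) numbered 8 with a pseudocount of 0.1, 9 with no filter, 12 with no minimum difference, 1 without the ESC group, 0 by voom, 0 with PGCLC and PGC alone, and 2 to 37 without single libraries. Those departing in ESC-PGCLC (8) numbered 3 with no filter, 3 with no trend, 15 with no minimum difference, 1 without the ESC group, 1 by voom, 0 with PGCLC and PGC alone, and 1 to 49 without single libraries. Those departing in both (0) numbered 6 with no minimum difference and 0 to 1 without single libraries. Those called for neither (31) numbered 19 with no trend, 51 with no minimum difference, 5 without the ESC group, 0 with PGCLC and PGC alone, and 15 to 99 without single libraries. With no minimum difference more genes can pass by construction; the cause of the other moves was not tested. The fit without the ESC group was added after the data were seen.

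The replicate number was not taken to pair the PGCLC libraries, since nothing in the labels says what it marks and deviations of same-numbered libraries of the 2 origins correlated at 0.161, 0.037 and 0.058. As a hint from the data, 2 of the 3 ESC-PGCLC libraries and 3 of the 3 gPSC4-PGCLC libraries correlated best with their own number in the other origin. Between each PGCLC group and each EpiLC group 2 or 3 of the 3 libraries did so, and between the EpiLC groups 3 of 3. Between PGCLC and PGC it was 1 or 2 of 3. Whether the number marks a batch shared by the cultured groups was not tested, and the main fit leaves it out. With the number as a replicate block, over the groups whose columns carry one, 88 genes were called between origins, 11 higher and 77 lower, 35 of the 44 among them (Fkbp1b was not, adjusted p 0.0555 by limma), 98 for ESC-PGCLC against PGC and 6 for EpiLC, and the placement gave 37 for ESC-PGCLC and 47 for neither; the same groups without the block gave 7 between origins. No paired analysis was possible for gPSC4 against ESC because the ESC columns carry no number.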
